A study of Mus musculus with 7 samples.

Results

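The interleukin-1 (IL-1) family was followed in papillomas of mice with and without transgenic *Nanog*. It was taken as 9 genes chosen by symbol: the ligands *Il1a*, *Il1b*, *Il18* and *Il33*, the antagonist *Il1rn*, and the receptors *Il1r1*, *Il1rap*, *Il1r2* and *Il1rl1*. These are 9 of the 23284 gene symbols measured. RNA was sequenced from papillomas of 4 CTR and 3 TG mice, 1 library per mouse, so the spread between libraries is a spread between animals. Both groups carried a doxycycline-dependent *Nanog* cDNA at the *Col1a1* locus (*tetO-Nanog*), and only TG mice carried *K5-rtTA*, a transactivator driven by the keratin 5 promoter of basal keratinocytes. All mice were between 8 and 10 weeks old when doxycycline was started, and the carcinogen DMBA was applied afterwards. They then received TPA, a phorbol ester that promotes tumors, for 15 weeks, followed by up to 15 weeks of observation. Papillomas were taken when the protocol ended or earlier, at a humane endpoint. The paper reports that many TG mice reached that endpoint early through large carcinomas, while all CTR tumors were benign papillomas. Which time applied to each mouse sequenced is not given in the sources used here, so the time of collection may differ between the groups. All were given doxycycline at 2 mg/ml in the drinking water, so CTR papillomas carry the allele and the drug without the transactivator.

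IL-1α and IL-1β bind the same receptor, IL-1R1, which signals only after it has recruited the accessory protein IL-1RAcP, encoded by *Il1rap*. The antagonist IL-1RA, encoded by *Il1rn*, occupies that receptor without signaling, and the decoy receptor IL-1R2 binds the ligands but lacks the signaling domain. IL-33 acts through ST2, encoded by *Il1rl1*, which uses the same accessory protein, and IL-18 has a receptor pair of its own. In skin, keratinocytes store IL-1α and IL-33 as ready-made alarm signals that damaged cells release, and make large amounts of the antagonist. IL-1β and IL-18 are made as precursors that caspase-1 can cut, and IL-1β comes mainly from myeloid cells. Because whole papillomas were sequenced, fewer cells of a type and less RNA per cell cannot be told apart in what follows.

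The ligand and antagonist genes lie apart on chromosome 2 (GRCm38). *Il1a* spans chr2:129299610-129309972 and *Il1b* chr2:129364580-129371120, both on the minus strand with 54.6 kb between them, while *Il1rn* lies at chr2:24336860-24351491 on the plus strand. 3 of the receptor genes form a cluster on chromosome 1: *Il1r2* (chr1:40084768-40125226), *Il1r1* (chr1:40225080-40316177) and *Il1rl1* (chr1:40439649-40465414). *Il1rap* lies at chr16:26581705-26725147, *Il18* at chr9:50565368-50581837 and *Il33* at chr19:29925114-29960715. In the GENCODE M21 annotation, exons of *Il1a*, *Il1b* and *Il1rap* overlap a transcript on the opposite strand (*Gm14023*, *Il1bos* and *Gm20319*). The libraries were stranded, but whether the abundance estimates used the strand is not given in the sources used here, so reads of these pairs may not have been separated.

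The promoters of the 2 agonist genes and of the antagonist are shown because, among the ratios between members given below, those of these genes differed most between the groups. The sequences are the 250 bases before the RefSeq start (GRCm38.p6), read 5′ to 3′ on the gene's strand, with matches to TATAAA or TGANTCA, searched on both strands, in capitals.
Il1a, chr2:129309973-129310222, minus strand: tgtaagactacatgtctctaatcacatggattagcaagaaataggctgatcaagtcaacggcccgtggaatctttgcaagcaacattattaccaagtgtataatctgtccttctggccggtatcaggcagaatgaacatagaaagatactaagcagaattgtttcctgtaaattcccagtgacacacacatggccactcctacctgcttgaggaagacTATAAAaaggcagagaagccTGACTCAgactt
Il1b, chr2:129371140-129371389, minus strand: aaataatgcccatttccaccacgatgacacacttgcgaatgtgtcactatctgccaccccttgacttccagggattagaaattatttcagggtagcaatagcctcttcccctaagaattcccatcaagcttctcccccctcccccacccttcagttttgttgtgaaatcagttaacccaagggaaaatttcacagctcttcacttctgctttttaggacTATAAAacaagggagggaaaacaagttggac
Il1rn, chr2:24336610-24336859, plus strand: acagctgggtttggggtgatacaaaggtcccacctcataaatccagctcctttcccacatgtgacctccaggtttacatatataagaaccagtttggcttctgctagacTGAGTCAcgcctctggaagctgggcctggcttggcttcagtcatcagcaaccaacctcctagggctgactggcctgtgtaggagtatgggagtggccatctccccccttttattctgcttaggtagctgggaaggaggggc
The *Il1a* window held a TATAAA 32 bases before the start and TGACTCA, the letters that the AP-1 factors bind, 12 bases before it. The *Il1b* window held a TATAAA 31 bases before the start and no TGANTCA. The *Il1rn* window, that of the most upstream of its RefSeq starts, had no TATAAA and held TGAGTCA 141 bases before the start. The windows of its other starts are not printed and held neither motif. Of 32851 RefSeq windows of this length, 12.4% held TATAAA, 6.75% held TGANTCA and 4.65% held a form of the NF-κB site (GGG, any 3 bases, TTCC). All 9 members matched a RefSeq start, with 14 windows in all, and the NF-κB motif was found in another window of *Il1rn* and in 1 of *Il1r1*. TATAAA was also found in *Il33*, 203 bases before 1 start and 29 bases before the other. *Il18* held it on the opposite strand, 175 bases before the start. These matches describe letters and do not show that a factor bound there.

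Expression was estimated by the authors as FPKM (fragments per kilobase of transcript and library size), which is per length and so allows levels of different genes to be set side by side. The Cufflinks intervals implied between 10070297 and 15706357 reads on genes per papilloma, the most in CTR 3 and TG 1. TG 3 stood apart from the other libraries. Its correlations with them over tested genes, on the scale of log2(FPKM + 0.5), lay between 0.903 and 0.937, against 0.945 to 0.977 for the other pairs, and it held the highest of the 7 values for 41.1% of the 12299 tested genes. *Nanog* ranged from 2.70 to 12.7 FPKM in CTR and from 36.9 to 66.9 FPKM in TG papillomas, which matches the labels, although limma did not call it (adjusted p = 0.4). Summed markers of several other cell types were highest in TG 3. Macrophage genes summed to 208 FPKM there against 41.8 to 71.1 in the other 6, fibroblast genes to 692 against 81.5 to 137, and skeletal muscle genes to 654 against 1.81 to 5.11. The TG 3 sums of neutrophil (77.9 FPKM), group 2 lymphoid and Th2 (28.7 FPKM) and adipocyte genes (1712 FPKM) lay within the range of the others. Basal keratinocyte genes summed to 6896 FPKM in TG 3 and to between 6660 and 12960 in the others, so keratinocyte RNA was abundant in every papilloma. The part of these differences in the results below was not tested.

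**Figure D1:**
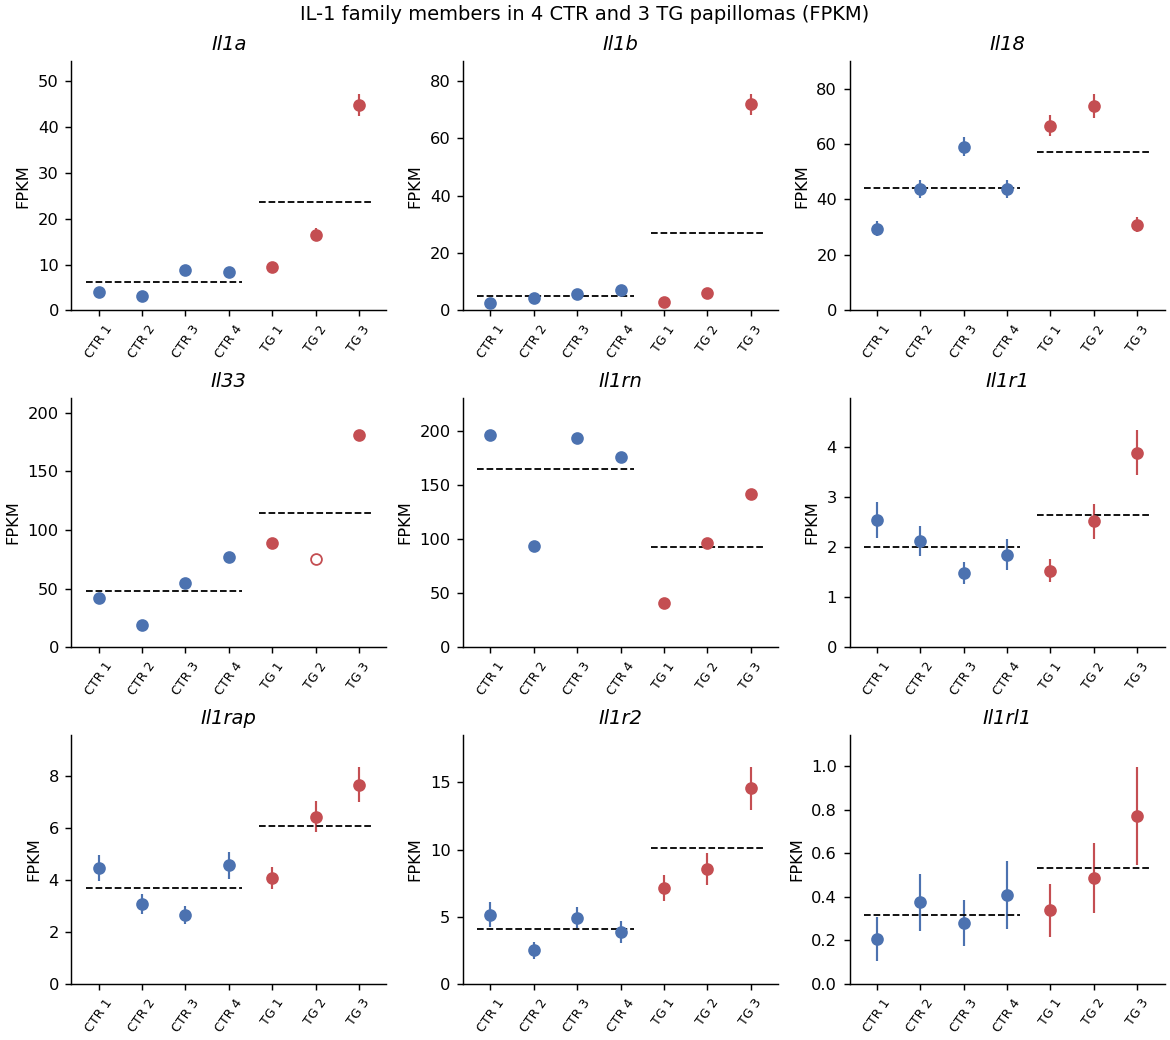
FPKM of the 9 genes in each papilloma (x axis; blue, 4 CTR; red, 3 TG), each panel with its own linear y axis from 0. Vertical lines are the Cufflinks intervals of single libraries, dashed lines are group means, and the open circle is the failed *Il33* estimate in TG 2; *Il1a* and *Il1r2* are the genes whose groups do not overlap, and TG 3 is highest in 7 panels.

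TG papillomas had more RNA for the agonist *Il1a*, the decoy receptor *Il1r2* and the alarmin *Il33* and less for the antagonist *Il1rn* on average, but no member passed the test. The mean log2 level was higher in TG for 8 of 9 members and lower for 1, against 60.0% of all tested genes that were higher. Groups did not overlap for *Il1a* and *Il1r2*, both higher in TG, where 4.93% of tested genes had every TG value above every CTR value and 2.23% every TG value below. Values were compared with limma on log2(FPKM + 0.5) over the genes whose mean FPKM reached 0.5, and 0 of 12299 genes had an adjusted p under 0.05 (0.0% higher and 0.0% lower). Before adjustment, p was under 0.05 for 598 genes with a higher level in TG (4.86%) and for 241 with a lower one (1.96%). That split depended on scaling, with 520 higher and 415 lower after upper-quartile scaling and 403 and 551 after quantile normalization. Of the 7 members in this fit, 3 were higher at that level (*Il1a*, *Il1rap* and *Il1r2*) and 0 lower, and their median log2 difference was 0.64, against 0.061 for all tested genes. With 4 against 3 papillomas, an exact permutation test over the 35 splits cannot give a two-sided p below 0.0286.

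*Il1a* encodes IL-1α, the agonist that keratinocytes hold ready. It measured 3.94, 3.12, 8.88 and 8.41 FPKM in CTR 1 to CTR 4, and 9.53, 16.5 and 44.9 FPKM in TG 1 to TG 3. Every TG papilloma exceeded every CTR papilloma, although TG 1 was close to CTR 3. The means were 6.09 ± 2.98 (SD, n = 4) and 23.6 ± 18.7 FPKM (SD, n = 3), a log2 difference of 1.71 (SE 0.52). This gave an adjusted p of 0.633 in limma and a two-sided p of 0.0286 in the exact permutation test, the smallest that 35 splits allow. TG 3 gave 63.3% of the summed TG value, and without it the log2 difference was 1.11.

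*Il1b* encodes IL-1β and was high in a single papilloma. It measured 2.67, 4.25, 5.71 and 7.06 FPKM in CTR 1 to CTR 4, and 2.87, 6.01 and 71.9 FPKM in TG 1 to TG 3. TG 1 and TG 2 lay within the CTR range, and TG 3 was 16.2 times the mean of those TG papillomas and supplied 89.0% of the TG sum. The means of 4.92 ± 1.89 (SD, n = 4) and 26.9 ± 39.0 FPKM (SD, n = 3) gave a log2 difference of 1.18 (SE 0.89), with an adjusted p of 0.852 in limma and p = 0.4 in the exact permutation test. Without TG 3 the difference turned to -0.14. *Il1b* is on the study's own list of genes raised in TG papillomas, which was drawn from these libraries and is not independent evidence of its direction.

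The value of *Il1b* in TG 3 came with high values of many, but not all, myeloid genes. Of the 12 neutrophil markers measured, *Csf3r*, the receptor for granulocyte colony-stimulating factor, was at 17.0 FPKM in TG 3 and at most 0.75 elsewhere, and *Retnlg* was at 14.0 FPKM against at most 0.765. The genes of neutrophil granules made in the marrow, *Ngp*, *Camp*, *Elane* and *Mpo*, were at or near 0 in all papillomas. The summed neutrophil markers ranged from 9.06 to 25.0 FPKM in CTR and from 77.9 to 102 in TG, but *Stfa2l1*, a stefin gene that the study also picked from these libraries, made up most of TG 1 and TG 2 (70.0 and 89.4 FPKM). Leaving it out, a step chosen after its values were seen, the other 11 summed to 64.8 FPKM in TG 3 and to between 7.33 and 12.9 in the other papillomas. The macrophage gene *Cd14* was at 41.9 FPKM in TG 3 and at most 5.39 elsewhere. *Csf3r*, *Retnlg* and *Fpr1* passed the 0.5 FPKM filter only through TG 3. Which markers were tested therefore depended in part on TG 3. Of the tested markers in these lists, *Stfa2l1*, *Cxcr2* and *Cd68* were not highest in TG 3. *Cxcr2* was at 9.99 FPKM there and at 11.1 in TG 1, and *Cd68* was at 18.2 FPKM, within its CTR range of 15.4 to 20.6. Whether myeloid cells account for the *Il1b* value was not tested.

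*Il18*, the only member with its lowest TG value in TG 3, was abundant in both groups. It measured 29.5, 43.7, 59.1 and 43.8 FPKM in CTR 1 to CTR 4, and 66.7, 73.8 and 30.9 FPKM in TG 1 to TG 3. TG 1 and TG 2 exceeded every CTR papilloma, and TG 3 exceeded only CTR 1. The log2 difference was 0.32 (SE 0.33, adjusted p = 0.912 in limma, with p = 0.429 in the exact permutation test). It was 0.71 without TG 3, 0.087 without TG 2, 0.16 without TG 1 and 0.14 without CTR 1.

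*Il33* encodes the alarmin of the ST2 receptor. It measured 41.8, 19.1, 54.5 and 76.8 FPKM in CTR 1 to CTR 4, and 88.4, 75.0 and 180.7 FPKM in TG 1 to TG 3. TG 1 and TG 3 exceeded every CTR papilloma, while TG 2 fell just under CTR 4. The TG 2 estimate carries the status FAIL, with an interval from 0 to 92.3 FPKM, so *Il33* was not in the fit of all genes and was fitted with every status kept. The means were 48.1 ± 24.1 (SD, n = 4) and 114.7 ± 57.6 FPKM (SD, n = 3), a log2 difference of 1.3 (SE 0.47), with an adjusted p of 0.690 in limma and p = 0.0857 in the exact permutation test. Without TG 2 the difference was 1.55 (SE 0.53, adjusted p = 0.852 in limma), and the exact permutation test over 15 splits gave p = 0.133, where the smallest it can give is 0.0667.

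*Il1rn*, the antagonist, was the one member with a lower mean in TG papillomas. It measured 196.6, 94.0, 193.9 and 176.2 FPKM in CTR 1 to CTR 4, and 41.1, 96.1 and 141.7 FPKM in TG 1 to TG 3. CTR 2 lay beneath TG 2 and TG 3, so the groups overlapped, and a TG value was the higher in 2 of 12 pairs of papillomas. The means were 165.2 ± 48.3 (SD, n = 4) and 93.0 ± 50.4 FPKM (SD, n = 3), and the log2 difference of -0.94 (SE 0.42) had an adjusted p of 0.748 in limma and p = 0.143 in the exact permutation test. TG 1 decided much of its size, since the difference was -0.44 without TG 1 and -1.33 without TG 3. The gene-level values do not separate the secreted from the intracellular form of the antagonist, nor the soluble from the membrane forms of the receptors.

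**Figure D2:**
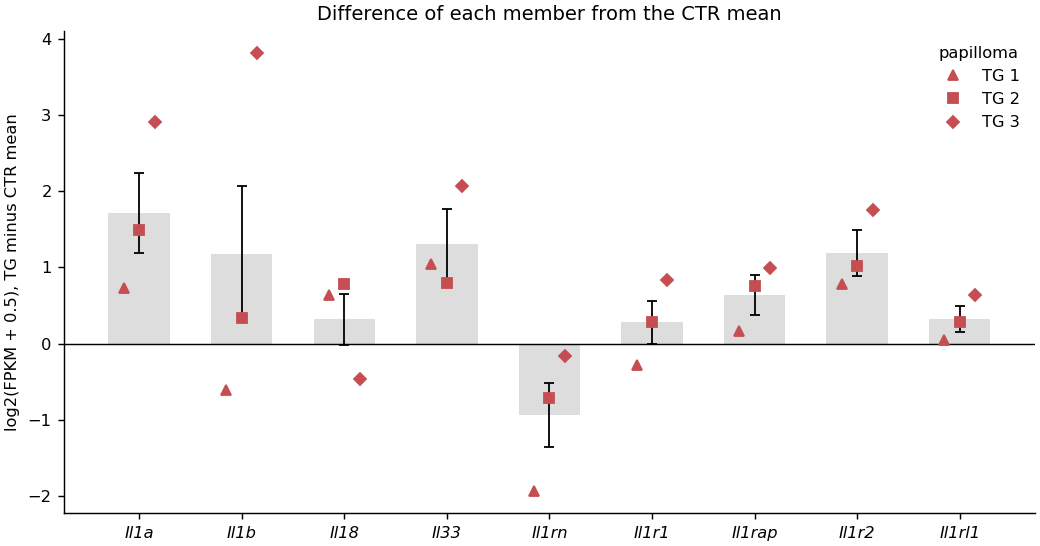
Log2(FPKM + 0.5) of each TG papilloma minus the CTR mean (symbols, 3 TG papillomas) for the 9 genes, with the fitted difference of the 3 TG from the 4 CTR papillomas (grey bar, starting at 0) and its standard error from limma. *Il1a*, *Il33*, *Il1rap*, *Il1r2* and *Il1rl1* lie above 0 in every TG papilloma and *Il1rn* lies below 0 in every one, while the *Il1b* bar of 1.18 rests on TG 3.

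Among the receptors, the decoy *Il1r2* differed most and the signaling receptor *Il1r1* least. *Il1r2* measured 5.14, 2.48, 4.91 and 3.82 FPKM in CTR 1 to CTR 4, and 7.16, 8.55 and 14.6 FPKM in TG 1 to TG 3. All 3 TG values were above all 4 CTR values. The means of 4.09 ± 1.21 (SD, n = 4) and 10.1 ± 3.93 FPKM (SD, n = 3) gave a log2 difference of 1.19 (SE 0.30), with an unadjusted p of 0.00326 and an adjusted p of 0.564 in limma and the smallest possible p of 0.0286 in the exact permutation test. This was the smallest unadjusted p among the members, and over 21 alternative settings the log2 difference stayed between 0.90 and 1.48.

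*Il1r1*, through which both agonists signal, was low in all papillomas. It measured 2.54, 2.12, 1.48 and 1.85 FPKM in CTR 1 to CTR 4, and 1.53, 2.51 and 3.88 FPKM in TG 1 to TG 3. Only TG 3 lay outside the CTR range. The log2 difference of 0.28 (SE 0.28) had an adjusted p of 0.909 in limma, and it was 0.0024 without TG 3.

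*Il1rap*, the accessory chain shared by the IL-1 and IL-33 receptors, was higher in TG 2 and TG 3. It measured 4.45, 3.06, 2.64 and 4.56 FPKM in CTR 1 to CTR 4, and 4.09, 6.43 and 7.67 FPKM in TG 1 to TG 3. TG 1 lay within the CTR range. The log2 difference was 0.64 (SE 0.26), with an unadjusted p of 0.0372 and an adjusted p of 0.713 in limma and p = 0.143 in the exact permutation test.

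*Il1rl1*, the IL-33 receptor, was close to the limit of detection. It measured 0.205, 0.375, 0.280 and 0.409 FPKM in CTR 1 to CTR 4, and 0.337, 0.486 and 0.770 FPKM in TG 1 to TG 3, which corresponds to between 16 and 46 reads per library. TG 2 and TG 3 exceeded every CTR papilloma and TG 1 did not. Its mean fell under the 0.5 FPKM filter, and without the filter the log2(FPKM + 0.5) difference, which understates the change of so low a gene, was 0.32 (SE 0.17, adjusted p = 0.901 in limma). Markers of cell types that can carry ST2 were mixed. The summed mast cell genes ranged from 3.01 to 5.89 FPKM in CTR and reached 2.77, 5.07 and 8.90 FPKM in TG 1 to TG 3. The type 2 cytokine genes *Il5* and *Il13* were at or under 0.0733 FPKM in all papillomas, and *Il4* was at 1.54 FPKM in TG 2 and at or under 0.395 elsewhere. The whole list of group 2 innate lymphoid and Th2 cell genes summed to between 15.5 and 35.2 FPKM in CTR and to 43.7, 53.9 and 28.7 FPKM in TG 1 to TG 3. *Areg*, a growth factor that keratinocytes also make, gave most of that sum, and *Rora* was at 3.66, 6.67 and 2.49 FPKM in TG 1 to TG 3 against 1.91 to 2.53 FPKM in CTR (log2 difference 0.75, unadjusted p = 0.0284 and adjusted p = 0.702 in limma).

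On the FPKM scale, the order of the members by mean level changed at the top. In CTR papillomas the antagonist *Il1rn* led, above *Il33* and *Il18*, and its lowest CTR value exceeded the highest of *Il33*. Below *Il18* came *Il1a*, *Il1b*, *Il1r2*, *Il1rap*, *Il1r1* and *Il1rl1*. Neighbours whose CTR ranges did not overlap were *Il1rn* and *Il33*, *Il18* and *Il1a*, *Il1rap* and *Il1r1*, and *Il1r1* and *Il1rl1*. In TG papillomas *Il33* had the highest mean, above *Il1rn* and *Il18*, and *Il1b* stood above *Il1a* through TG 3. *Il33* exceeded *Il1rn* in TG 1 and TG 3 but not in TG 2 (75.0 against 96.1 FPKM), where the *Il33* estimate failed. The ranges of these neighbours overlapped, and only *Il1rap* and *Il1r1*, and *Il1r1* and *Il1rl1*, were separated from their neighbour in that order.

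Ratios within a papilloma are free of scaling between libraries. The antagonist outnumbered the agonist *Il1a* on the FPKM scale by 49.9, 30.1, 21.9 and 20.9 times in CTR 1 to CTR 4, and by 4.31, 5.82 and 3.16 times in TG 1 to TG 3. The groups were far apart on this measure, and TG 3 did not stand out. Expressed as *Il1a* to *Il1rn*, the ratio was 0.0367 ± 0.0128 (SD, n = 4) in CTR and 0.240 ± 0.0726 (SD, n = 3) in TG papillomas, 6.54 times higher. The log2 difference of this ratio was 2.74, and it ranged from 2.48 to 2.96 when each papilloma was left out in turn. The ratio was chosen with the values of both genes known, so it is given without a test.

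The other ratios did not overlap between groups either, with smaller gaps. This follows in part from the members themselves, since *Il1a* and *Il1r2* were separated on their own and the divisor *Il1rn* had a lower mean in TG. The share of ratios between other genes that separate the groups was not computed. *Il1b* to *Il1rn* measured 0.0136, 0.0452, 0.0294 and 0.0401 in CTR 1 to CTR 4, and 0.0700, 0.0625 and 0.507 in TG 1 to TG 3. The lower TG values were near the highest CTR value, and the log2 difference of 2.16 became 1.18 without TG 3. The decoy to signaling receptor ratio, *Il1r2* to *Il1r1*, measured 2.02, 1.17, 3.32 and 2.07 in CTR 1 to CTR 4, and 4.68, 3.41 and 3.75 in TG 1 to TG 3. TG 2 lay just above CTR 3, and the means were 2.15 ± 0.886 (SD, n = 4) and 3.95 ± 0.660 (SD, n = 3).

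**Figure D3:**
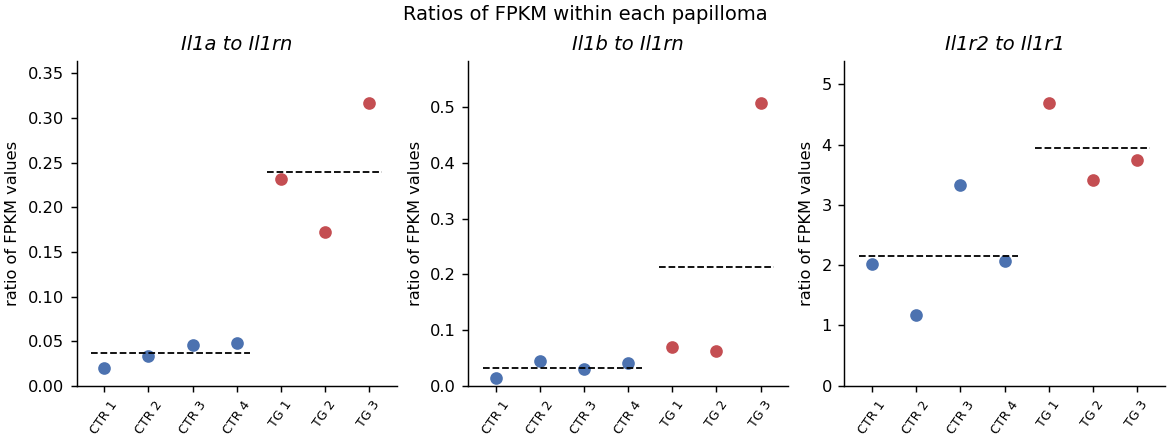
Ratios of FPKM values within each papilloma (blue, 4 CTR; red, 3 TG; linear y axes from 0; dashed lines, group means) for *Il1a* to *Il1rn*, *Il1b* to *Il1rn* and *Il1r2* to *Il1r1*. TG papillomas lie between 0.172 and 0.316 in the first panel and CTR papillomas at 0.0477 or under, while the second panel is spread by TG 3.

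Other genes of the pathway were taken from 5 lists with 80 genes, of which 68 were tested. In limma 0 of them were called, 5 were higher and 1 lower at an unadjusted p under 0.05 (4.86% and 1.96% of all tested genes), and every TG value lay above every CTR value for 7 and below for 1 (4.93% and 2.23% of all tested genes). Their median log2 difference was 0.29, against 0.061 for all tested genes, and 54 of 68 had a higher mean in TG, against 60.0% of all tested genes.

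Among the other ligands and antagonists, 0 of 6 had an unadjusted p under 0.05 (median log2 difference 0.20). *Il1f9*, which encodes the epidermal agonist IL-36γ, measured 119.5, 97.4, 117.1 and 123.6 FPKM in CTR 1 to CTR 4 and 139.4, 153.6 and 140.1 FPKM in TG 1 to TG 3. The TG values were all above the CTR values by a small margin (log2 difference 0.34, SE 0.16, adjusted p = 0.775 in limma). Its antagonist *Il1f5* had a log2 difference of 0.36 with overlapping groups. Among the other receptors, 0 of 3 tested genes had an unadjusted p under 0.05. *Il18r1*, a chain of the IL-18 receptor, was at 2.44 FPKM in TG 3 and at most 0.985 elsewhere, and *Il1rl2*, the IL-36 receptor, had a log2 difference of 0.24. *Il1rapl1* and *Il1rapl2* were listed at 0 in every papilloma.

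The inflammasome and processing genes went in both directions, with 2 of 10 higher and 1 lower at an unadjusted p under 0.05, where all tested genes gave 4.86% and 1.96%. *Casp1*, whose product cuts the IL-1β and IL-18 precursors, measured 50.9, 48.2, 43.6 and 31.3 FPKM in CTR 1 to CTR 4 and 25.9, 27.6 and 28.6 FPKM in TG 1 to TG 3. Every TG papilloma was below every CTR papilloma (log2 difference -0.64, SE 0.19, adjusted p = 0.626 in limma, p = 0.0571 in the exact permutation test). *Casp4*, the caspase that senses intracellular lipopolysaccharide, measured 1.56, 1.34, 1.55 and 1.18 FPKM in CTR 1 to CTR 4 and 2.54, 2.54 and 3.54 FPKM in TG 1 to TG 3. It was higher in every TG papilloma (log2 difference 0.82, SE 0.20, adjusted p = 0.558 in limma, p = 0.0286 in the exact permutation test). *Capn2*, a calpain subunit of the protease class that cuts the IL-1α precursor, lay between 19.7 and 34.8 FPKM in CTR and between 36.5 and 41.9 FPKM in TG (log2 difference 0.57). *Nlrp3*, the inflammasome sensor, was at 2.67 FPKM in TG 3 and at most 0.384 elsewhere, so it passed the 0.5 FPKM filter only through TG 3. *Nlrp1b* and *Nlrp6* also had groups that did not overlap, but neither exceeded 0.296 FPKM and neither was tested.

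Of 28 genes for signal transduction downstream of the receptor, 1 was higher at an unadjusted p under 0.05 and 0 were lower (median log2 difference 0.27), which is near the 4.86% and 1.96% of all tested genes. *Myd88*, the adaptor that binds the receptor complex, ranged from 16.6 to 19.1 FPKM in CTR and from 20.8 to 23.5 FPKM in TG papillomas (log2 difference 0.28, SE 0.14, adjusted p = 0.799 in limma). *Ikbkg*, the regulatory subunit of the IκB kinase, ranged from 2.78 to 3.39 and from 3.49 to 4.54 FPKM. These groups did not overlap, with narrow gaps. The largest log2 differences were those of *Nfkbie* (0.77), an inhibitor of NF-κB, and *Irak3* (0.64), an inhibitory kinase of the pathway, and in both TG 1 lay within the CTR range.

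Of 21 tested genes known to respond to IL-1, 2 were higher at an unadjusted p under 0.05 and 0 were lower, against 4.86% and 1.96% of all tested genes (median log2 difference 0.52). *Lcn2*, which encodes the iron-binding protein lipocalin-2, measured 2.44, 10.4, 2.14 and 4.54 FPKM in CTR 1 to CTR 4 and 26.4, 14.8 and 25.8 FPKM in TG 1 to TG 3. All TG values were above all CTR values (log2 difference 2.28, SE 0.47, adjusted p = 0.538 in limma, p = 0.0571 in the exact permutation test). *Ptges*, the inducible prostaglandin E synthase, ranged from 10.5 to 39.0 FPKM in CTR and from 42.0 to 66.8 FPKM in TG papillomas (log2 difference 1.12). The neutrophil chemokine *Cxcl5* was at 115.6 FPKM in TG 3 and between 1.39 and 3.08 FPKM in the others, so that its log2 difference of 1.81 was -0.017 without TG 3. *Lcn2* and *Cxcl5* are also on the study's list drawn from these libraries.

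**Figure D4:**
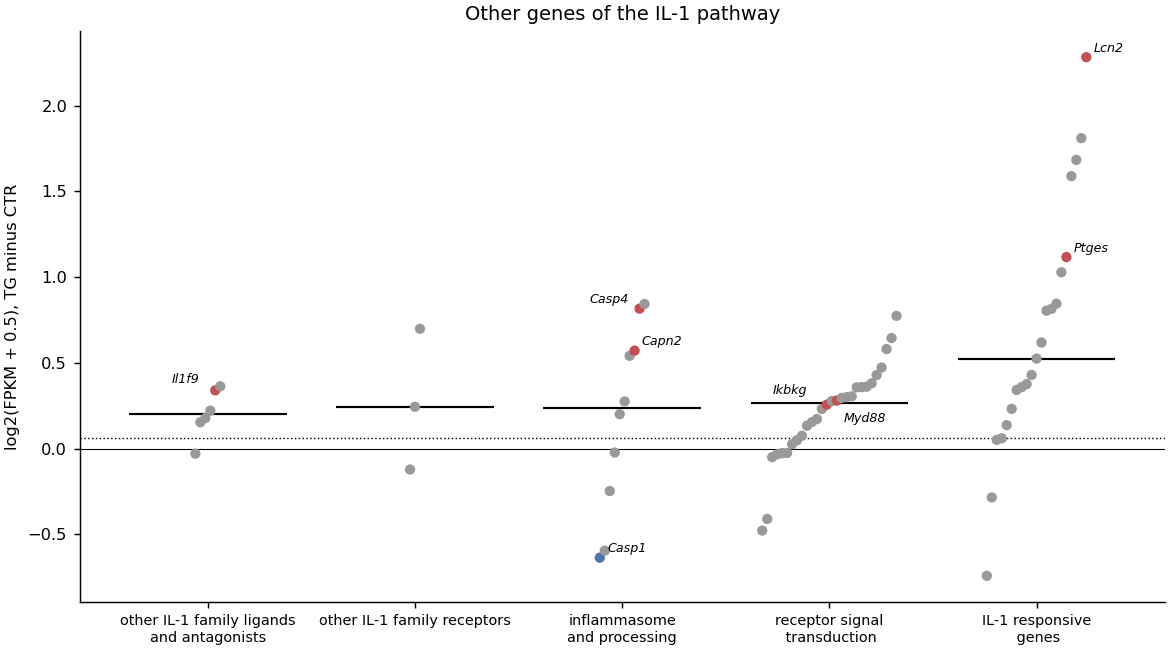
Log2(FPKM + 0.5) difference, TG minus CTR, of the 68 tested pathway genes in 5 lists (y axis), each point a gene. Red and named, every TG above every CTR value (7 genes); blue and named, every TG below (1 gene, *Casp1*); grey, overlapping groups; solid lines, list medians from 0.20 to 0.52; dotted line, median of all tested genes (0.061).

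The genes whose pattern over the 7 papillomas was nearest to a member were found for the 3 tested members that varied most, as the root mean square (RMS) difference of log2(FPKM + 0.5) after centering each gene on its mean. Nearest to *Il1b* (SD 1.53) were *Irg1* (RMS 0.20), an enzyme of activated macrophages that makes itaconate, *Krt8* (0.24), a keratin of simple epithelia, *Clec4e* (0.29), a receptor of myeloid cells, *Cxcl3* (0.34), a neutrophil chemokine, and *Hp* (0.36), haptoglobin. All 5 were highest in TG 3, which follows from choosing them for likeness to *Il1b*. *Cxcl3* was at 94.3 FPKM there against at most 7.10 elsewhere, and *Irg1* at 14.3 against at most 0.698. *Irg1*, *Krt8*, *Clec4e* and *Hp* passed the 0.5 FPKM filter only through TG 3. *Irg1*, *Clec4e* and *Cxcl3* are on the same list of the study as *Il1b*.

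Nearest to *Il1a* (SD 1.22) were *St3gal1* (RMS 0.37), *Trp53inp2* (0.41), *Ccr1* (0.44), *Csf1* (0.46) and *Myadm* (0.47). *Csf1*, the growth factor of macrophages, was at 4.05, 5.07 and 10.4 FPKM in TG 1 to TG 3, all above its CTR range of 1.19 to 2.56 FPKM. Nearest to *Il1rn* (SD 0.81) were *Slc7a8* (RMS 0.16), *Chst15* (0.26), *Grip1* (0.28), *Slc1a5* (0.30) and *Pcsk6* (0.31). *Slc7a8* and *Slc1a5* encode amino acid transporters. Like *Il1rn*, these genes were lowest in TG 1 and low in CTR 2, with *Slc7a8* at 2.19 and 4.38 FPKM there. The likeness is a description over 7 papillomas that share the libraries' own differences. Because the genes were chosen for it, the patterns they share with a member are not separate evidence.

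**Figure D5:**
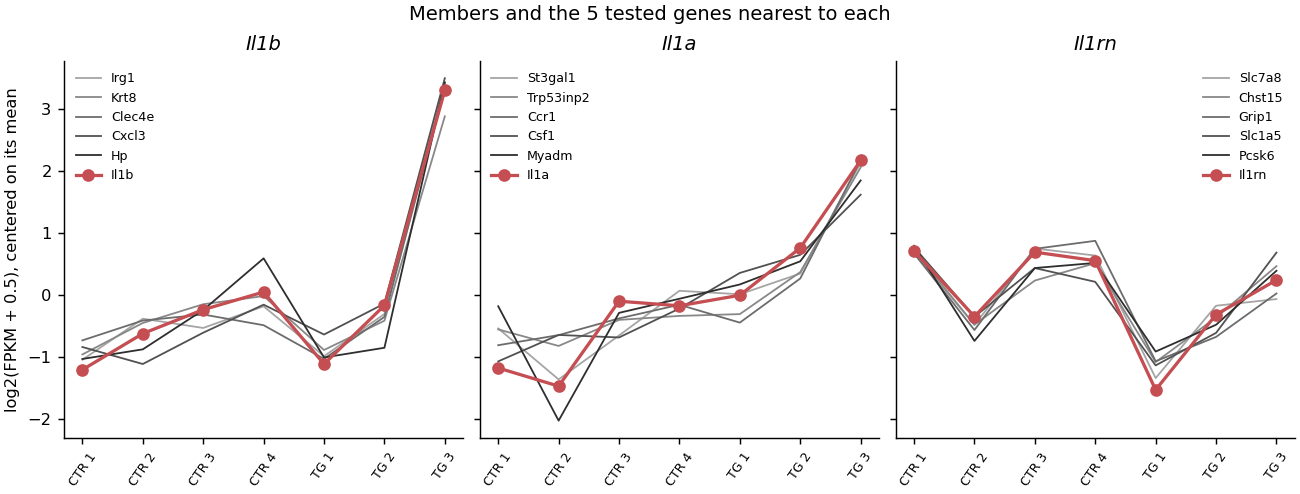
Log2(FPKM + 0.5) centered on each gene's mean (y axis) in the 7 papillomas (x axis) for *Il1b*, *Il1a* and *Il1rn* (red) and the 5 tested genes nearest to each (grey). The *Il1b* group is low except in TG 3, the *Il1a* group is highest in TG 3, and the *Il1rn* group is lowest in TG 1 with a dip in CTR 2.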

How the data were processed

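Papilloma RNA-seq libraries (4 CTR, 3 TG) were used, with groups and replicate numbers from the labels. Per the labels, the authors aligned 40-base single reads of stranded polyA libraries to GRCm38/mm10 using TopHat 2.0.4 with Bowtie 0.12.7 and Samtools 0.1.16, then estimated abundances per library in Cufflinks 1.3.0. Values deposited by the authors are FPKM per gene with an interval and a status, and no read numbers. FPKM steps were not turned into reads for a test, and the depths given are inferred from interval widths and approximate; they cover counting error only.

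Entries of a symbol were summed (240 symbols), and 162 symbols with a FAIL status in any papilloma were left out, leaving 23122. Log2(FPKM + 0.5) of the 12299 genes whose mean reached 0.5 FPKM was fitted with limma 3.58.1 (R 4.3.3, with a variance trend), with Benjamini-Hochberg adjustment over all of them and a threshold of 0.05. The fit was tried on simulated data with independent noise, which held no outlying library such as TG 3. Single genes were compared by exact two-sided permutation over 35 splits (Python 3.11.15, pandas 2.3.3). Fold differences on this scale understate the change of low genes. The study used Cuffdiff, which needs reads and was not run here.

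The members, the pathway and marker lists and the ratios were chosen with earlier results of these data known. Named genes were the 9 members and *Nanog*, list genes whose groups did not overlap or else the 2 of largest difference in a list, and the 5 tested genes nearest to each of the 3 most variable tested members; others named were chosen after their values were seen. Marker lists were for neutrophils, macrophages, mast cells, T cells, group 2 innate lymphoid and Th2 cells, basal and suprabasal keratinocytes, fibroblasts, endothelium, skeletal muscle and adipocytes. *Ly6g*, *Trac* and *Flg* were not found under these symbols. The 21 alternatives covered pseudocounts of 0.1 and 1, no filter or a filter at 2 FPKM, scaling, moderation, quality weights, a replicate block, depth, the highest entry of a symbol, every status, and each papilloma left out in turn. Coordinates were converted from the files to 1-based positions, and promoters were taken from RefSeq (GRCm38.p6).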

Additional observations from a re-analysis of the deposited data

Results flagged for a closer look

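Of 48 genes named from the lists or as members, 4 had a CTR papilloma farther from the other 3 than Dixon's critical value allows, and chance gives about 1 in 20 groups. Groups of 3, such as TG, were not examined in this way, and none of the 9 IL-1 family members was among the 4. The endothelial gene *Vwf* was at 0.538 FPKM in CTR 1 and between 1.16 and 1.161 FPKM in the other CTR papillomas. The muscle actin gene *Acta1* was at 0.409 FPKM in CTR 3, against 0.162 to 0.197. The muscle troponin gene *Tnnc2* was at 0.0832 FPKM in CTR 1 and listed at 0 in the others. The adipocyte gene *Cfd* was at 0.0484 FPKM in CTR 3 and listed at 0 in the others. With the others at 0, any value above 0 is flagged, so the rate of 1 in 20 does not apply to *Tnnc2* and *Cfd*.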

How the results depend on the processing

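Of 186 values of the members' log2 differences recomputed over 21 alternatives, 185 kept their direction and their side of the threshold. The exception was *Il1b*, at -0.14 without TG 3. It was 2.07 without TG 1 and at most 2.16, with the libraries of lower depth alone. When 1 papilloma was left out, *Cxcl5* ranged from -0.017 (without TG 3) to 2.95 (without TG 2), and *Krt15* from -0.23 (without TG 3) to 1.00 (without TG 1). Ranges were 1.11 to 2.41 for *Il1a*, 0.90 to 1.48 for *Il1r2*, 0.59 to 1.58 for *Il33* and -1.33 to -0.34 for *Il1rn*. The smallest adjusted p of a member from limma was 0.0575, for *Il1r2* with sample quality weights, and its adjusted p ranged up to 0.999.

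Of all tested genes, 0 were called in the reported fit, but sample quality weights gave 49 higher and 36 lower, and the libraries of lower depth alone gave 1 higher. At an unadjusted p under 0.05, quality weights gave 1 member lower (*Il1rn*) and 14 pathway genes higher and 3 lower, with 1 pathway gene (*Lcn2*) called at the adjusted threshold. Upper-quartile scaling gave 1 member and 2 pathway genes lower, and quantile normalization 3 pathway genes lower. A covariate for the deeper libraries gave 8 pathway genes higher and 2 lower. The unadjusted counts over all genes, 598 higher and 241 lower as reported, were 1161 and 1248 with quality weights, 520 and 415 with upper-quartile scaling, 403 and 551 with quantile normalization and 590 and 279 with the depth covariate, and 961 were higher with no filter. The cause of these changes was not tested.

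Leaving out each papilloma in turn gave 0 to 9 genes higher and 0 to 8 lower at the adjusted threshold, both highest without TG 3. At an unadjusted p it gave 2 to 4 members higher and 0 to 1 lower, and 4 to 15 pathway genes higher (15 without TG 1) and 1 to 3 lower (3 without CTR 2), where all genes gave 824 higher and 347 lower without TG 1 and 431 and 271 without CTR 2.

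Deviations of same-numbered papillomas correlated at -0.186, 0.0431 and -0.146, within the -0.216 to 0.312 of the other pairs. The labels give only a shared number, these values cannot show whether more was shared, and CTR 4 has no partner. With the replicate block, 0 genes were called. At an unadjusted p, 505 of all genes were higher and 170 lower, 13 pathway genes were higher and 2 lower, 2 members were higher in place of 3 (*Il1rap* no longer), and *Il1a* had a log2 difference of 1.89. Depth limits *Il1rl1*, with 46 reads at most in a library.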

Other observations

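Beyond the IL-1 family, *Tslp*, an epithelial alarmin that like IL-33 acts on type 2 immune cells, was chosen after its values were seen. It measured 0.419, 21.7, 25.4 and 11.8 FPKM in CTR 1 to CTR 4, and 54.8, 69.6 and 5.70 FPKM in TG 1 to TG 3. TG 1 and TG 2 were above every CTR papilloma and TG 3 was below 3 of the 4 (log2 difference 1.68, SE 1.23, adjusted p = 0.848 in limma). *Il18* also had its lowest TG value in TG 3. *Gata3*, a transcription factor of group 2 lymphoid cells and of hair follicle and epidermal cells, was at 5.22 and 7.34 FPKM in TG 1 and TG 2, at 1.67 in TG 3 and at most 2.91 in CTR papillomas.

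Suprabasal keratinocyte genes summed to between 6564 and 11580 FPKM in CTR and to 8809, 9080 and 5375 FPKM in TG 1 to TG 3. *Krt4*, a keratin of internal stratified epithelia, was at 18.9 and 29.7 FPKM in TG 1 and TG 2 and between 299.8 and 782.0 FPKM in the other papillomas. *Krt13* was also lower in TG 1 and TG 2 (1290 and 788.6 FPKM) than in CTR (2406 to 6007 FPKM). *Krt1* and *Krt10* went the other way. *Krt1* was at 1517, 3309 and 132.7 FPKM in TG 1 to TG 3, against 187.1 to 807.1 FPKM in CTR. *Krt10* was at 3150, 3133 and 181.3 FPKM in TG 1 to TG 3, against 916.6 to 1440 FPKM in CTR. The groups overlapped for *Lor* and *Sbsn*. *Ivl*, the cornified envelope protein involucrin, was between 17.7 and 26.8 FPKM in CTR and at 159.0, 107.6 and 36.4 FPKM in TG 1 to TG 3, and it is on the study's list drawn from these libraries. The other marker sums were 1.77 to 3.17 FPKM in CTR and 2.00 to 4.44 in TG for T cells, 8.60 to 13.9 and 12.0 to 31.0 for endothelium, and 1374 to 3228 and 1545 to 2269 for adipocytes, where *Fabp4*, also a gene of other cell types, made up nearly the whole sum.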
